A study of Mus musculus with 6 samples.

Results

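The DNA repair and Fanconi anaemia genes were followed in resting CD4 T cells from mouse spleen that had or had not been treated with vasoactive intestinal peptide (VIP), a neuropeptide that acts on lymphocytes through G protein-coupled receptors. Members were chosen by gene name. They are the non-control probes named for a Fanconi anaemia gene (Fanca to Fancz), Brca1 or Brca2, a gene of the Rad, Xrcc, Ercc, Msh, Mlh or Lig series, or Atm, Chek1, Chek2, Trp53, Trp53bp1, Palb2 or Blm. This gave 108 probes for 60 genes, out of 41174 probes for 28082 gene names on the array. Atr is in the rule too, but no probe carries that name. A few members bear newer symbols than the array's design, among them Rad51b, Rad51d, Rad9a and Atp23, the last of which was matched only through its old name Xrcc6bp1 and is a mitochondrial protease gene.

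Each of 6 2-colour arrays carried RNA of 1 VIP-treated and 1 untreated sample of C57BL/6J spleen CD4 T cells, and the labels call the 6 arrays biological replicates. No allele, transgene or further agent is named for either group. By the labels, every sample pooled 5 to 10 spleens, and mice were males and females aged 6 to 32 weeks, and CD4 cells were taken with magnetic beads, so a sample is a mean over several animals and over whatever other cells the beads carried along. VIP-treated RNA was in Cy5 on replicates 1, 3 and 5 and in Cy3 on replicates 2, 4 and 6. The labels used here state neither a dose of VIP nor how long it was applied. They do not give the sexes in each pool, and sex-linked transcripts set several samples apart. Xist, which is transcribed from the inactive X chromosome of females, stood at 6.34 and 6.21 log2 intensity in the VIP-treated samples of replicates 3 and 4 and at 6.29 in the untreated sample of replicate 4, against 10.26 to 12.86 in the other samples. Eif2s3y, a Y-linked gene, stood at 5.98 and 6.00 in both samples of replicate 5 and at 7.77 in the VIP-treated sample of replicate 6, against 11.08 to 13.03 in the others. On replicates 3 and 6 the samples of an array thus differed, by 3.90 and 1.18 in size for Xist and by 1.18 and 2.35 for Y-linked genes (medians over probes on the log2 scale).

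The Fanconi anaemia pathway repairs crosslinks between DNA strands that block replication. A core complex of Fanc proteins attaches ubiquitin to the pair formed by Fanci and Fancd2, and the marked pair brings in nucleases, translesion polymerases and the homologous recombination proteins around Brca1 and Brca2. Other members act in mismatch repair, nucleotide excision repair, end joining and the checkpoint that halts division after damage. In lymphocytes many of these genes are known to be higher in dividing cells, and resting T cells are largely outside the cycle.

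The results turn on Fanci, which 2 probes measured. Both lie on the plus strand of chromosome 7 in mm9 and are 60 bases long with 45.0% G and C, and their starts are 40846 bases apart. The brighter probe, A_51_P441843, lies at chr7:86594919-86594978, and the first 30 of its bases are shown. The dimmer one, A_52_P259755, lies at chr7:86554073-86554132 and is shown whole. No capitals are used because no stretch is singled out.
Fanci, A_51_P441843, bases 1 to 30: ttcacctgtaagacggtggaaattggttag
Fanci, A_52_P259755: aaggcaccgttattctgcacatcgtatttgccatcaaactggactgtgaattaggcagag

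Fanci was the single member called, and it was higher with VIP by 0.71 ± 0.069 on the log2 scale (SE, n = 6 arrays), a 1.63-fold rise. Of the 56 members that could be tested, 1 rose and 0 fell, which is 1.79% of them, against 3.15% of all 18854 genes tested (594 genes, of which 331 or 1.76% rose and 263 or 1.39% fell). Genes count as called where the limma p, adjusted over all genes by Benjamini-Hochberg, was under 0.05. The share of members called was thus no larger than the background. In bulk RNA, more cells of a type and more RNA per cell cannot be told apart.

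In the brighter Fanci probe the VIP-treated samples of replicates 1 to 6 stood at 13.88, 13.96, 14.13, 13.93, 13.81 and 13.84 normalized log2 intensity. The untreated samples stood at 12.96, 13.19, 13.28, 13.17, 13.10 and 13.61 in the same order. All VIP-treated samples were above all untreated ones. The groups were apart in this way, in either direction, for 0.196% of all genes tested (37 genes). The untreated sample of replicate 6 was the highest of its group. The log2 ratios within arrays were 0.92, 0.77, 0.85, 0.77, 0.71 and 0.24. Replicate 6 thus gave the smallest ratio, with its VIP-treated sample inside the range of the others. By slide, each holding 1 array of either dye orientation, the mean ratio was 0.84, 0.81 and 0.47. The 95% interval of the fitted ratio ran from 0.56 to 0.86, with an adjusted p = 0.000541 by limma. Fanci ranked 25 by p and 15 by size of rise among all genes tested. Without replicate 6 its ratio was 0.80 (limma adjusted p = 8.03e-05).

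The dimmer Fanci probe moved the same way on every array. Its ratios on replicates 1 to 6 were 0.33, 0.25, 0.39, 0.20, 0.34 and 0.16, so replicate 6 was lowest here too. VIP-treated samples ran from 6.73 to 7.23 and untreated ones from 6.57 to 6.95, and the groups overlapped, although the VIP-treated sample was the higher on each array. The fitted ratio was 0.28 ± 0.040 (SE, n = 6), with a limma adjusted p = 0.00456 over all 27418 kept probes, of which 794 (2.90%) were called. The brighter probe exceeded it by 0.43 on average, in 6 of 6 arrays (exact 2-sided sign-flip permutation test, p = 0.03125, the smallest that 6 arrays allow).

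**Figure D1:**
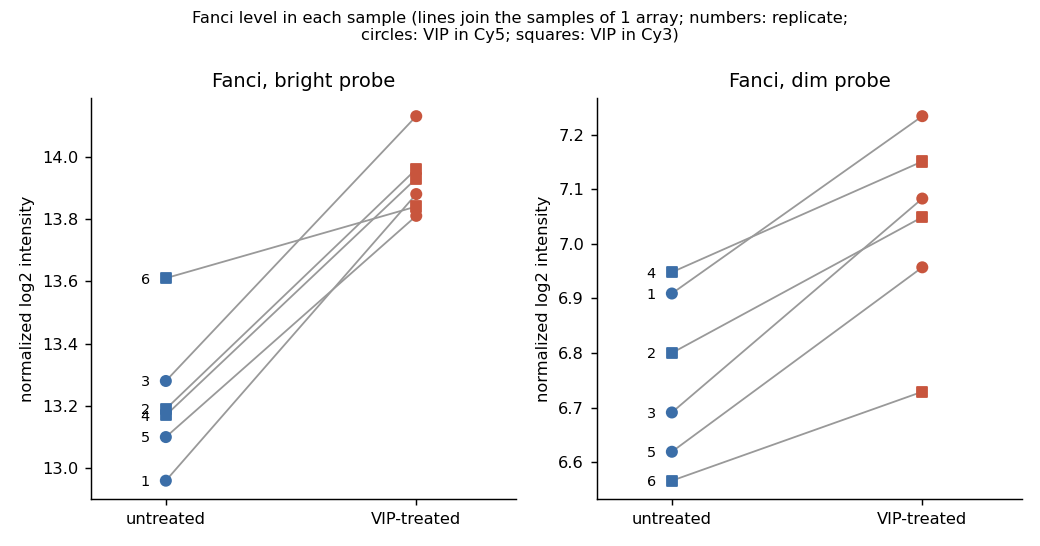
Normalized log2 intensity of Fanci in each untreated (blue) and VIP-treated (red) sample, for the brighter probe (left) and the dimmer probe (right), with lines joining the samples of an array, replicate numbers on the left and separate vertical axes that do not start at 0. All 6 lines rise in both panels, and the flattest lines belong to replicate 6 (0.24 and 0.16).

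The gap between both Fanci probes depended on the constant added to intensities before the log, which shrinks ratios of dim probes. With an offset of 50 the probes stood at 0.71 and 0.28. An offset of 16 gave 0.71 and 0.41. The scanner software's processed signals, to which no offset was added, gave 0.72 and 0.67. The brighter probe thus kept its value while the dimmer one came close to it. With processed signals the dimmer probe was called (limma adjusted p = 0.0264 over probes) and the brighter one was not (0.0648). A test of the gap itself was made only at the offset of 50.

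**Figure D2:**
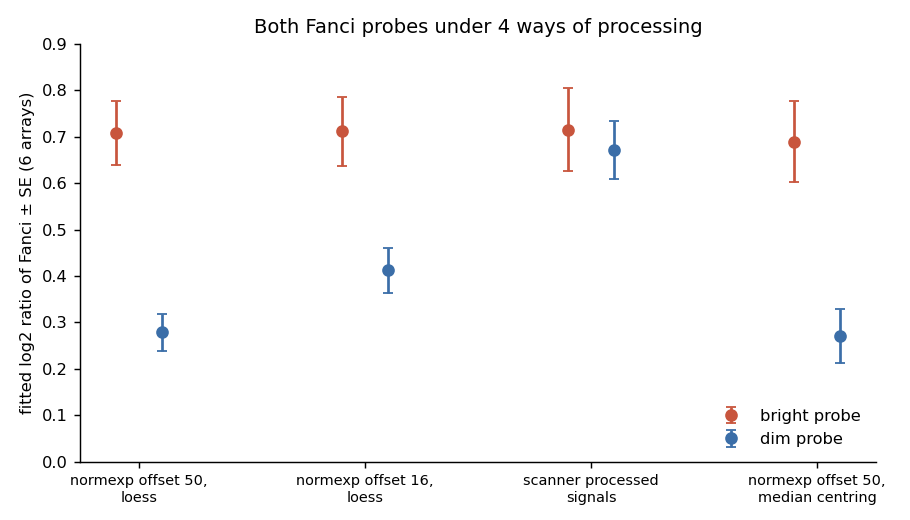
Fitted log2 ratio of VIP-treated over untreated for both Fanci probes under 4 ways of processing; points are fits over 6 arrays and bars are ± SE. The brighter probe lies between 0.69 and 0.72 throughout, and the dimmer probe runs from 0.27 to 0.67.

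The other 55 tested members lay between -0.16 (Msh3) and 0.13 (Ercc6l), and none was called. Their 95% intervals bound the ratios as fitted with the offset, the lowest bound being -0.26 for Msh3 and the highest 0.24 for Lig1. For 53 of the 55 the whole interval was within 0.25 of 0, a change of 1.19-fold, and for 44 within 0.2. In dim probes the offset shrinks ratios, so there the intervals do not bound the change in RNA. The dimmer Fanci probe had an interval from 0.19 to 0.37, but gave 0.67 with the scanner's processed signals. With those signals the largest ratio of a tested member besides Fanci was 0.17 in size, in the probe that stood for its gene. Other kept probes went further, at -0.29 for Ercc8, 0.20 for Ercc4 and 0.19 for Brca1. Over all 56 members the median ratio was 0.0018 against -0.0048 for all genes, and the median size of the ratio was 0.046 against 0.048. With an unadjusted p under 0.05 there were 6 members (10.7%), against 16.8% of all genes, namely Fanci, Ercc6l, Lig1 and Fancb above 0 and Msh3 and Xrcc4 below. Of the members, 29 had a ratio above 0 and 27 below.

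**Figure D3:**
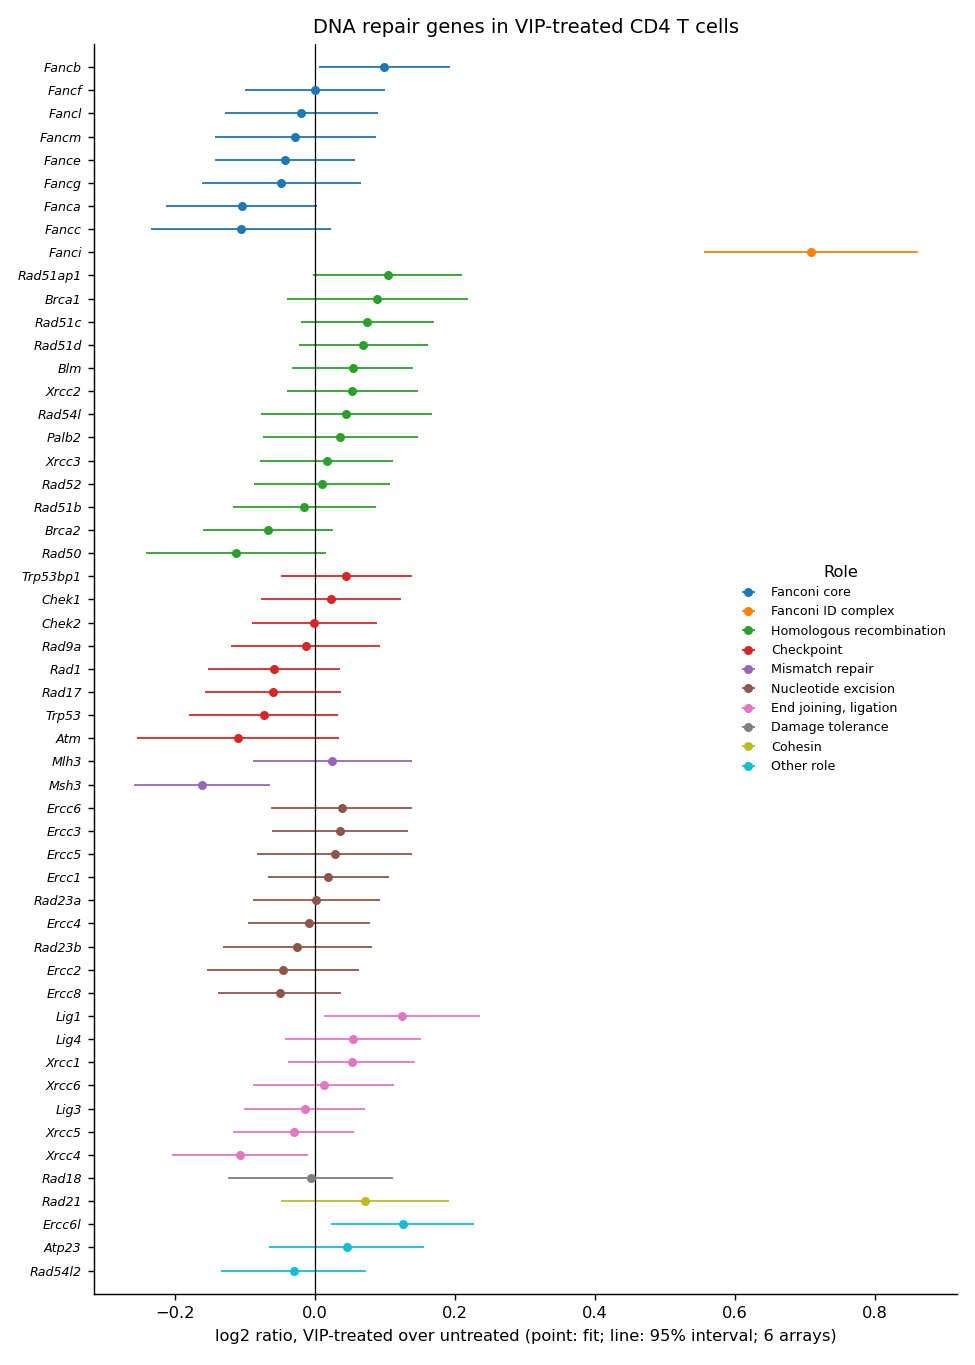
Fitted log2 ratio of VIP-treated over untreated (point) with its 95% interval (line) for 53 of the 56 tested members over 6 arrays, coloured and grouped by role. Fanci lies at 0.71, and the others lie between -0.16 and 0.13.

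None of Fanci's nearest partners was called by limma. Fancd2, which forms the ubiquitin-marked pair with Fanci, falls outside the name rule, which allows 1 letter after Fanc, but was on the array, and stood at -0.0033 ± 0.048 (SE, n = 6; limma adjusted p = 0.985), with a 95% interval from -0.11 to 0.10. The Fancd2 probe was dim, at a mean log2 intensity of 7.33, against 13.58 for the brighter Fanci probe. At 6.88, the dimmer Fanci probe gave 0.28, and the offset shrinks the ratios of such probes. All 8 core complex members were tested and 0 were called by limma, with 1 at an unadjusted p under 0.05. Their median was -0.035, with 1 ratio above 0 and 7 below. Fancb, a structural subunit of the core, stood at 0.10 ± 0.042 (limma adjusted p = 0.267), with ratios of 0.13, 0.11, 0.22, -0.070, 0.14 and 0.066 on replicates 1 to 6. Only replicate 4 was negative. Fancc and Fanca, both subunits of the core, stood at -0.11 and -0.10, and Fancl, its ubiquitin ligase, at -0.019. Fancm, the DNA translocase that anchors the core, stood at -0.028 in its brighter probe and 0.12 in a dimmer one. The core median ran from -0.066 without replicate 2 to 0.0039 without replicate 6.

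The 14 homologous recombination members had a median of 0.049, with 11 ratios above 0 and 3 below, and 0 were called by limma, nor was any at an unadjusted p under 0.05. The median was 0.10 with the scanner's processed signals or the authors' value table and 0.028 on the arrays matched in sex-linked transcripts. By array, with the dye effect included, it varied from -0.061 on replicate 2 to 0.11 on replicate 3, and was negative on replicates 2 and 6. The arrays with VIP in Cy5 gave medians of 0.077, 0.11 and 0.10, and those with VIP in Cy3 -0.061, 0.057 and -0.045. Rad51ap1, which stimulates strand exchange, stood at 0.10 ± 0.048 (limma adjusted p = 0.315), and its ratios ran from -0.061 to 0.27. Brca1, which promotes recombination at broken ends, stood at 0.089 on 5 arrays. Brca2, a mediator of recombination, stood at -0.067, and Rad50, part of the complex that senses broken ends, at -0.11. Rad51c, which acts in recombination with Xrcc3, was besides Fanci the only member whose measured ratio, dye effect included, had the same sign on all 6 arrays. Its ratios were 0.089, 0.026, 0.063, 0.22, 0.0048 and 0.047. This made 2 of the 54 members measured on 6 arrays (3.70%), against 7.06% of all genes so measured (1190 of 16850). With the fitted dye effect removed, 9 of the 54 had the same sign on all arrays (16.7%, against 14.4% or 2420 of all genes so measured), namely Blm, Ercc6l, Fanci, Lig1, Rad51c and Rad51d above 0 and Ercc8, Msh3 and Xrcc5 below. Rad51c's fitted 0.075 was not called (limma adjusted p = 0.432). Its probe was dim, at a mean log2 intensity of 6.40. It was well above background on 3 of 6 arrays in each treatment, the fewest that the filter allows.

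Of the checkpoint genes, 8 of 9 were tested and 0 called by limma, with 0 at an unadjusted p under 0.05. Their median was -0.036, and ran from -0.052 without replicate 2 to -0.013 without replicate 4. Atm, the kinase that responds to double-strand breaks, stood at -0.11 ± 0.065 (limma adjusted p = 0.444). Its ratios of 0.15, -0.15, -0.24, -0.093, -0.39 and 0.064 had mixed signs, with replicate 5 lowest, and its second probe gave -0.12. Atm moved to -0.19 without replicate 1 and to -0.053 without replicate 5. Chek1 and Chek2, the kinases below Atr and Atm, stood at 0.023 and -0.00099. Trp53, the p53 transcription factor that checkpoint kinases activate, stood at -0.073. Rad9b, a subunit of the sliding clamp that recruits the checkpoint, was too dim to test, and without the filter on dim probes it stood at -0.042.

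Mismatch repair held the lowest member. Msh3, which takes part in finding larger loops of mispaired bases, stood at -0.16 ± 0.044 (limma adjusted p = 0.0815). Its ratios were -0.061, -0.36, 0.013, -0.16, -0.14 and -0.27, negative on all arrays but replicate 3. VIP-treated samples ran from 10.77 to 11.14 and untreated ones from 10.83 to 11.40 in log2 intensity, so the groups overlapped. Its other probes gave -0.081 and -0.017. Msh6, which takes part in finding single mispaired bases, was bright but was left out because the scanner software had marked spots of it as outliers, and stood at -0.14 (limma adjusted p = 0.215) with the marked spots kept. Mlh3, which acts after recognition, stood at 0.025. Msh4 and Msh5, which act in meiosis, were too dim to test, and without that filter stood at 0.034 and -0.0053. In all, 4 of the 7 genes were tested, 0 were called by limma and 1 had an unadjusted p under 0.05.

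All 9 nucleotide excision repair members were tested, with a median of 0.0019, ratios from -0.050 (Ercc8) to 0.038 (Ercc6), 0 called by limma and 0 at an unadjusted p under 0.05. The median turned to -0.0026 without replicate 2 and to -0.0083 with outlier-marked spots kept. Ercc8 and Ercc6 both act where a lesion stalls transcription. Ercc8 was the other member besides Fanci whose probes differed by more than 0.3, out of 27 members with several kept probes (7.41%, against 1.38% of the 5937 such genes on the array). Its 3 probes, on the plus strand of chromosome 13 in mm9, are shown by their first 30 bases because their values part. A_51_P341010 (chr13:108984622-108984681), the brightest, gave -0.050. A_52_P236607 (chr13:108953799-108953858) gave -0.27 ± 0.068 (limma adjusted p = 0.0680 over probes). A_52_P471227 (chr13:108967873-108968786, an interval longer than the probe) gave 0.044.
Ercc8, A_51_P341010, bases 1 to 30: ctgagtttgggatatttccctgtgtgcttt
Ercc8, A_52_P236607, bases 1 to 30: acagtgacatcatgccagtcaggtcatctg
Ercc8, A_52_P471227, bases 1 to 30: accagcataatgggaaaaagtcacaagctg
The ratios of A_52_P236607 were -0.33, 0.11, -0.50, -0.37, -0.15 and -0.35, negative on all arrays but replicate 2. It was below the brightest probe by 0.22 on average, on 5 of 6 arrays (exact 2-sided sign-flip permutation test, p = 0.0938, the smallest possible being 0.03125). Over all 27 members with several probes the median gap was 0.065, against 0.064 for all such genes.

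The 7 end joining and ligation members had a median of 0.013, with 0 called by limma and 2 at an unadjusted p under 0.05. The median was 0.045 without replicate 2 and turned below 0 without replicate 3 (-0.0038), without replicate 4 (-0.014) and on the arrays matched in sex-linked transcripts (-0.0080). Lig1, the ligase that seals fragments on the lagging strand at replication, stood at 0.12 ± 0.050 (limma adjusted p = 0.241). Its ratios were -0.032, 0.11, 0.22, 0.23, -0.083 and 0.29, with replicates 1 and 5 negative, and without replicate 3 it stood at 0.078. Xrcc4, the scaffold that holds Lig4 at a broken end, stood at -0.11 ± 0.044 (limma adjusted p = 0.249), with ratios of -0.094, -0.20, 0.14, -0.23, -0.061 and -0.19. Only replicate 3 was positive, and a second probe gave 0.0056. Lig4 stood at 0.055, and Xrcc5 and Xrcc6, which encode the Ku pair that binds broken ends, at -0.030 and 0.013.

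The remaining members have other roles. Ercc6l, a helicase that acts in mitosis, stood at 0.13 ± 0.046 (limma adjusted p = 0.195), and its second probe gave 0.0069. Its ratios were 0.16, -0.018, 0.23, -0.017, 0.17 and 0.23, near 0 on replicates 2 and 4. Rad21, a subunit of the cohesin ring, stood at 0.072 in its brighter probe and -0.087 in the other. The arrays with VIP in Cy5 gave Rad21 ratios of -0.071, -0.074 and -0.10, and those with VIP in Cy3 0.38, -0.027 and 0.33, a gap the dye term of the model takes up. Rad21 stood at 0.034 without replicate 2, 0.046 without replicate 6 and 0.13 without replicate 4. Rad18, the ubiquitin ligase that marks the replication clamp for damage tolerance, stood at -0.0060, with ratios from -0.36 to 0.21. Atp23 stood at 0.045, and Rad54l2, a helicase related to Rad54l, at -0.030.

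**Figure D4:**
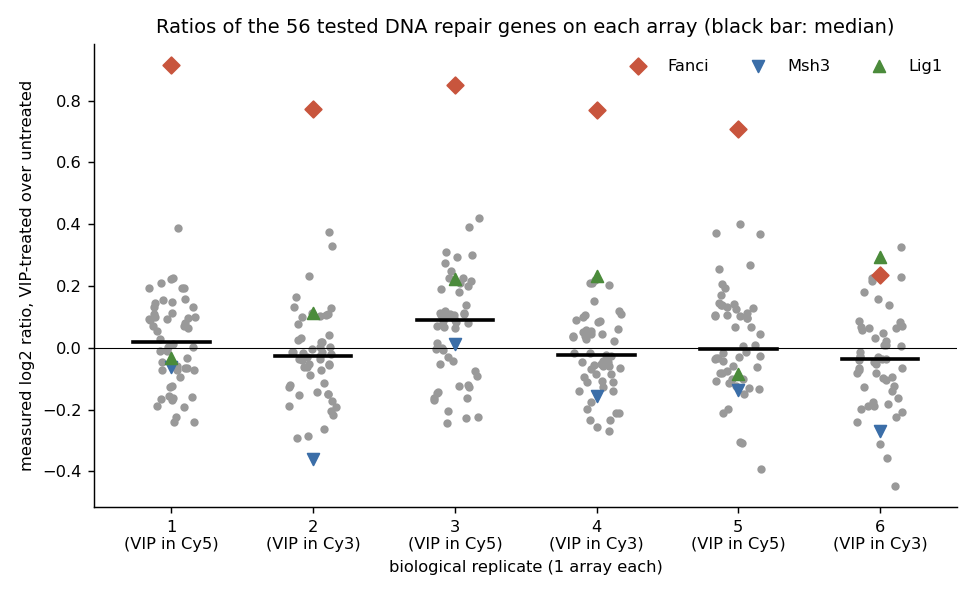
Measured log2 ratio of VIP-treated over untreated for the 56 tested members on each of 6 arrays (grey points, spread sideways at random; 55 members on replicates 2 and 6), with Fanci, Msh3 and Lig1 marked and the member median as a bar. Fanci is the highest member on replicates 1 to 5 and ranks 3 on replicate 6, where Rad21 (0.33) is highest.

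On single arrays Fanci stood apart from the other members, except on replicate 6. On replicates 1 to 5 the next member after Fanci reached 0.39, 0.38, 0.42, 0.23 and 0.40. The member median ran from -0.037 on replicate 6 to 0.089 on replicate 3, while the median of all genes ran from -0.015 to 0.015.

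Pathway genes outside the name rule were read from the same fit, in which 3.15% of all genes were called and 16.8% had an unadjusted p under 0.05. Of 29 tested genes of the Fanconi pathway and recombination that the rule left out, 0 were called by limma, with 4 at an unadjusted p under 0.05 and a median of 0.0046. Faap100, a core complex subunit that works with Fancb and Fancl, stood at 0.18 ± 0.047 (limma adjusted p = 0.0741). Exo1, the nuclease that resects DNA in mismatch repair and recombination, stood at 0.16 ± 0.044 (limma adjusted p = 0.0895). Of 39 further excision and joining genes, 1 fell, 0 rose and 7 had an unadjusted p under 0.05, with a median of -0.012. The gene that fell was Ung, the glycosylase that removes uracil from DNA, by 0.24 ± 0.042 on the log2 scale (limma adjusted p = 0.0126). Without replicate 1 its adjusted p was 0.0520.

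Of 18 p53 target genes tested, 1 rose, 0 fell and 5 had an unadjusted p under 0.05, with a median of 0.020. Among all genes tested, 3.15% were called and 16.8% had an unadjusted p under 0.05. Perp, a membrane protein gene induced by p53, stood at 0.25 ± 0.055 (limma adjusted p = 0.0354). It was not called without replicate 1, 2, 3, 5 or 6 (limma adjusted p = 0.0514, 0.0667, 0.101, 0.115 and 0.0983). Of 26 S phase and division genes, 0 were called by limma and 5 had an unadjusted p under 0.05, with a median of -0.0022. Cdt1, which licenses replication origins, stood at -0.24 ± 0.063 on 5 arrays (limma adjusted p = 0.0745) and was called without replicate 4 at -0.34 (0.0248). Without replicate 6 Cdt1 stood at -0.14 (limma adjusted p = 0.350). Mcm4, part of the replicative helicase, stood at 0.14 ± 0.041 (limma adjusted p = 0.116). Mki67, a marker of dividing cells, stood at -0.084.

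The labelled cell type was checked on 8 CD4 T cell markers, all well above background in every sample, with 0 called by limma and 2 at an unadjusted p under 0.05. Those were Cd3g at -0.15 and Cd3d at -0.13 (limma adjusted p = 0.102 and 0.115), chains of the T cell receptor complex, both lower with VIP on 6 of 6 arrays. Cd4 stood at 0.012. Markers of 9 other cell types were also measured, 43 of 51 passing the filter. Of the 43, 0 were called by limma and 5 had an unadjusted p under 0.05, against 16.8% of all genes tested. Those 5 were Cd14 of macrophages at 0.18, Cd8b1 of CD8 T cells at 0.13, Jchain and Mzb1 of plasma cells at -0.18 and -0.11, and Itga2b of platelets at -0.12 (limma adjusted p from 0.0908 to 0.291). By measured ratio, dye effect included, Cd14 was higher on 5 of 6 arrays, Cd8b1 on 3, and Jchain, Mzb1 and Itga2b were each lower on 5. With the fitted dye effect removed, Cd14 was higher on 6 and Cd8b1 on 5, and the others were again each lower on 5. List medians ran from -0.11 for plasma cells, all 5 of whose markers were below 0, to 0.086 for CD8 T cells, both of whose markers were above 0. The mean log2 level of the plasma cell markers ran from 8.62 to 8.885 in VIP-treated and from 8.70 to 9.01 in untreated samples, and that of the CD8 T cell markers from 9.495 to 9.98 and from 9.26 to 9.78. The other genes of lowest p in these lists were Cd8a (0.047), Lyz2 of macrophages (0.10), Cd79b and Fcer2a of B cells (-0.10 and -0.074), and S100a8 and Mpo of neutrophils (0.13 and -0.038). Siglech and Zbtb46 of dendritic cells stood at 0.078 and -0.047, and Prf1 and Klrb1c of NK cells at 0.075 and -0.077. Hba-a1 and Alas2 of red cells stood at -0.11 and -0.13, and Ppbp of platelets at -0.075. All 7 tested markers of B cells, all 8 of macrophages and 2 of 2 of CD8 T cells were also well above background in every sample. For platelets this held for 1 of 3. Lyz2 and Cd79b had mean log2 intensities of 14.85 and 12.67. Signal above background in the CD4 T cell markers thus does not measure purity. The part of other cells in the Fanci value was not tested. On the 4 arrays whose samples matched in sex-linked transcripts, Fanci stood at 0.79 (limma adjusted p = 0.000189).

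VIP receptors signal through cAMP, which acts on promoters through the element TGACGTCA or its shorter form TGACG, while genes of the cell cycle often hold E2F sites (TTTCCCGC, TTTGGCGC) or the element TTTGAA. Exact matches to these letters were searched on both strands in RefSeq promoters of GRCm38.p6, from 250 bases before to 50 after each start. Near matches were not counted, so a promoter without these letters may still hold a similar site. Promoters were found for 48 of the 60 members. The promoter of Fanci, at chr7:79392088-79392387 on the plus strand, is shown because Fanci is the member that rose, and it holds none of the 5 motifs letter for letter. That of Rad51c, the other member whose measured ratio had the same sign on every array, is shown from 1 of its starts (chr11:87404457-87404756, minus strand), with TGACGTCA and another TGACG, read from the opposite strand as CGTCA, in capitals. Rad51c was not called, and a shared sign on every array was rarer among members (3.70%) than among all genes so measured (7.06%).
Fanci promoter: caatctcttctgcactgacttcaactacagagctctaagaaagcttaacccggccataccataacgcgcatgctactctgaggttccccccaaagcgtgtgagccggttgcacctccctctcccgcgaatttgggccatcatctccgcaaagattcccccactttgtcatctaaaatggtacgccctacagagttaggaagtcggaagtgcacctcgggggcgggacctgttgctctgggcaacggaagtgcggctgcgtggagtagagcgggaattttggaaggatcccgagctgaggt
Rad51c promoter: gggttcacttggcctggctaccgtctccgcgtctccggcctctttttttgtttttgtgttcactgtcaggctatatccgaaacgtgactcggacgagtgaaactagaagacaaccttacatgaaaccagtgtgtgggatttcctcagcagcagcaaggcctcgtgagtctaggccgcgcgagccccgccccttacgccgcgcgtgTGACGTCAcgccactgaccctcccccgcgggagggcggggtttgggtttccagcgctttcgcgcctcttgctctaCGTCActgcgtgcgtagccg
TTTCCCGC was in the promoters of 7 members (14.6%), namely Brca2, Chek2, Fancg, Msh5, Msh6, Rad51c and Xrcc6, against 1.24% of all 27025 genes with a promoter. In Rad51c, TTTCCCGC lies in the window of another start than the one shown. TTTGGCGC was in 1 member, Msh3 (2.08% against 0.585%). TGACGTCA was in 2, Brca2 and Rad51c (4.17% against 2.03%), and TGACG, which every TGACGTCA contains, in 20 (41.7% against 23.0%). TTTGAA was in 4 (8.33% against 20.2%). None of the tested members with TTTCCCGC was called. Member probes had a median of 41.7% G and C, against 40.0% for all probes.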

How the data were processed

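RNA of VIP-treated and untreated CD4 T cells was compared on 6 arrays with a dye swap, each sample contributing 250 ng RNA per the labels. The deposited scanner files give the intensity of each spot as written by Feature Extraction 9.5.1.1, and place probes on mm9, per the file headers. A value table that the authors deposited beside them matched the log10 ratio in the scanner files with the sign turned on replicates 2, 4 and 6 (largest difference 4.77e-06). Its median is 0 on every array, and it served as an alternative. Depth was set by signal: array medians were 83.6 to 108 in Cy3 and 148 to 235 in Cy5, and the number of arrays limits the precision.

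Mean signals were corrected with normexp against the median local background (offset 50) and normalized within arrays by loess in limma 3.58.1 (R 4.3.3). Control and outlier-marked spots (1.93% to 8.96% per array) were left out, and spots of a probe were averaged. A probe needed 3 or more arrays well above background in either treatment, and 2 or more measured arrays per dye orientation (27418 of 41174 passed). The brightest kept probe by mean log2 intensity stood for its gene, and symbols were updated through RefSeq accessions (24844 probes matched, 89 of the 108 member probes). Sample levels are log2 intensity after loess and Aquantile scaling.

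The model on log2 ratios, computed from the deposited intensity values, had a dye term for each probe and moderated variances (eBayes), with 4 residual and 6.63 prior degrees of freedom. Tests were 2-sided, with Benjamini-Hochberg adjustment over all genes. Replicate numbers pair the samples, because both samples of a number share an array. Ratios are thus paired, and a fold is the ratio taken back from log2. On simulated data for this comparison over 18854 genes, 97 of 100 changes of 0.7 and 60 of 100 of 0.3 were recovered with 4 false calls. The changes were added to log ratios after the offset and loess, so these counts leave out the shrinkage of dim probes. Named were members called or with an unadjusted p under 0.05, the member of lowest p in each role, members whose probes differed by over 0.3, and from each other list up to 4 called genes or the 2 of lowest p. Any other gene was named after its values were seen. Results of 3 tested members are not reported here by name and enter only the counts, medians and ranges. The members and lists were chosen with earlier results of these data known. Figures were drawn with matplotlib 3.10.9.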

Additional observations from a re-analysis of the deposited data

Results flagged for a closer look

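The Fanci ratio on replicate 6, 0.24 on the log2 scale, stood apart from the other 5 arrays, of which the nearest was 0.71. The gap was 0.695 of the whole range, above Dixon's 95% critical value of 0.625 for 6 samples. With the fitted dye effect removed, replicate 6 was still the lowest at 0.35, but the nearest array stood at 0.59 and the gap was 0.447 of the range, below that value. The ratios of 11 named members were checked in this way and 1 stood apart, and chance alone sets apart about 1 in 20 such groups. Replicate 6 is also an array whose samples differed in sex-linked transcripts (Xist by 1.18 and Y-linked genes by 2.35 in size), as did replicate 3, where Fanci stood at 0.85. Its part in the Fanci value was not tested.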

How the results depend on the processing

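Fanci stayed above 0 under all 18 other settings, from 0.49 (mean of its probes, limma adjusted p = 0.000911) to 0.80. It lost its call with the scanner's processed signals (0.72, limma adjusted p = 0.0688) and with the authors' value table (0.72, 0.0646), and, without the replicate block, with the 12 channels taken as unpaired samples (0.71, 0.0609). Under these 3 settings 0 of 56 members were called and 0 called higher, with 3, 3 and 1 members at an unadjusted p under 0.05, and the calls over all genes fell from 594 to 36, 38 and 4. Leaving out each replicate in turn gave Fanci from 0.66 to 0.80 with 1 member called each time. Not all of the 18 settings could move the Fanci ratio. With the dye swap balanced, it was fixed at 0.71 without the dye term, with slide as a block and with unpaired channels. Neither the filter on dim probes nor the marked spots touched its probe. The value table repeats the scanner's log ratios once signs are turned. Rad18, which is close to 0, turned to 0.022 with median centring, 0.047 with the mean of probes and 0.027 on arrays matched in sex-linked transcripts, and ran from -0.056 to 0.044 without single replicates. Rad21 turned to -0.0077 with the mean of probes. The cause was not tested.

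Calls over all genes also fell to 312 with median centring, 367 with an offset of 16, 122 without the dye term and 371 on the sex-matched arrays. Without replicates 1 to 6 in turn they fell to 300, 444, 461, 496, 252 and 360. With outlier-marked spots kept they fell to 428, and with the mean of probes to 559. They rose to 761 and 633 with slide as a fixed or random block, and to 664 of 26719 genes without the filter on dim probes. Ung lost its call with processed signals, the value table, median centring, no dye term, unpaired channels and sex-matched arrays (limma adjusted p from 0.0571 to 1). Signal limits the dim probes, whose ratios are shrunk by the offset.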
